A study of Glycine max with 10 samples.

Results

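The genes described here are dry-seed transcripts of the soybean embryonic axis that were low at 12 hours after imbibition (HAI) and high again at 24-HAI. They were chosen by their measured values. A gene was taken when it had at least 10 FPKM (a fragment count corrected for transcript length and library size) in dry seeds and at least 10 FPKM at 24-HAI, and when each of these values was at least 2.4 times the value at 12-HAI. The limits selected 45 of 54154 genes, and these are called the rebounding genes below. They are 0.135% of the 33358 genes with a highest value of 1 FPKM or more.

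The embryonic axis is the part of the seed embryo that forms the root and the shoot. RNA was sequenced by the authors from axes of cultivar BRS 284, parted from their cotyledons, in dry seeds and in seeds imbibed for 3, 6, 12 or 24 hours on wet cotton in a chamber at 28 °C with a 12/12 photoperiod. There were 10 libraries, 2 replicates of pooled seeds for each of the 5 time points, and all groups share the cultivar and the tissue. The values are 1 FPKM per gene and time point, made from both replicates, so values carry no SD, replicate spread is unknown, and no test was run. The number of reads behind an FPKM is unknown. Hours after imbibition and time of day cannot be told apart, since the hour of sowing relative to the light period is not given in the sources used here.

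Dry seeds hold messenger RNAs that were made while the seed matured and dried. Many of them are degraded after water enters, and new transcription then supplies the RNAs of the growing axis. A transcript can belong to both populations, stored in the dry seed and made again by the growing axis, with a low point between. In a bulk sample, fewer cells that hold an RNA and less RNA per cell cannot be told apart. The identifiers come from version 1.1 of the soybean genome, none of the 45 is named in the text of the study, and none matches the RefSeq gene table used here. The rebounding genes are therefore given by identifier and position, without a function, and the labelled tissue could not be checked against marker genes.

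Levels of a gene are given in the order dry seeds, 3-, 6-, 12- and 24-HAI, and positions as chromosome, start and end in genome version 1.1. In the following, fell and rose stand for a ratio of at least 2.4. The level of 10 FPKM both in dry seeds and at 24-HAI was met by 7171 genes, and this set, called the level group, is the background used here. The rebounding genes are 0.628% of it. From dry seeds to 12-HAI 16.6% of the level group fell, and from 12-HAI to 24-HAI 3.19% of it rose. These are the contrasts that chose the genes, so they are given as a description only. Of the 1191 genes of the level group that fell by 12-HAI, 229 fell further by 24-HAI, 669 were lower by less than the limit, 248 were higher by less than the limit and 45 rose. The rise at 24-HAI was thus seen in 3.78% of the genes that had fallen and in 3.08% of the 5980 genes that had not.

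**Figure D1:**
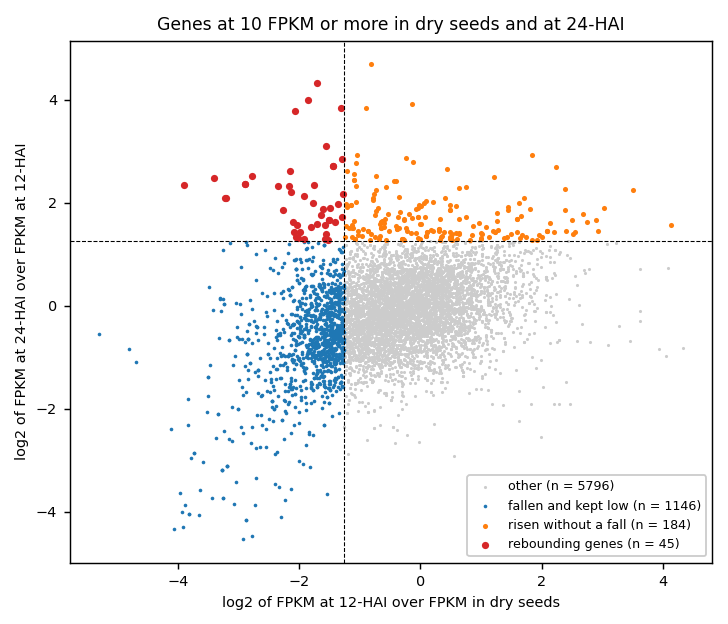
Each point is 1 of the 7171 genes at 10 FPKM or more in dry seeds and at 24-HAI, with the log2 ratio of FPKM at 12-HAI to dry seeds on the horizontal axis and that of 24-HAI to 12-HAI on the vertical axis. Dashed lines mark the 2.4-fold limits, and the 45 rebounding genes (red) fill the upper left corner beside 1146 genes that fell and stayed low (blue) and 184 genes that rose without a fall (orange).

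The median of the rebounding genes was 36.1 (dry), 22.8 (3-HAI), 12.7 (6-HAI), 7.87 (12-HAI) and 31.3 (24-HAI) FPKM. At 12-HAI their values ran from 2.41 to 135 FPKM. None of them was listed at 0 at any time point, and 12 of the 45 were under 5 FPKM at 12-HAI. The ratio of dry seeds to 12-HAI had a median of 3.49, and that of 24-HAI to 12-HAI a median of 3.97.

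**Figure D2:**
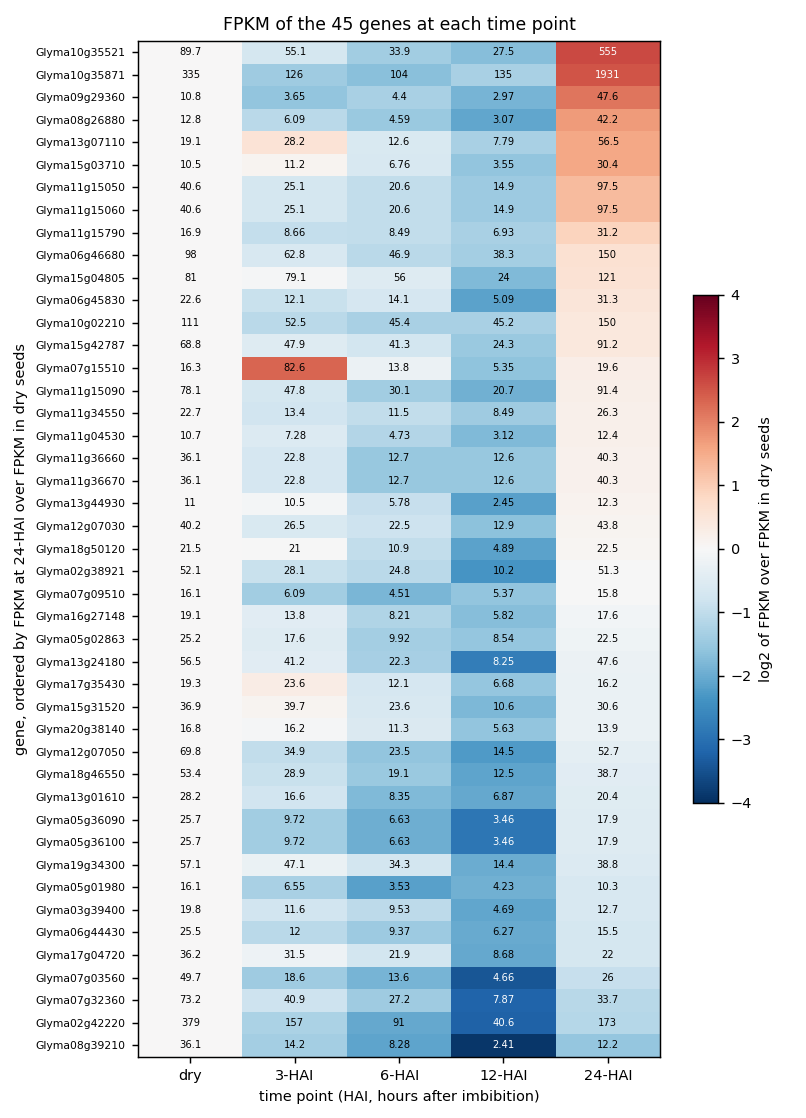
FPKM of the 45 rebounding genes (rows) at the 5 time points (columns), printed in each cell and coloured by the log2 ratio to the value in dry seeds. Rows are ordered by the ratio of 24-HAI to dry seeds, from Glyma10g35521 with 6.19 down to Glyma08g39210 with 0.339, and blue deepens toward 12-HAI in most rows.

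The set depends on how the time points are put on 1 scale. The FPKM of all genes sum to about 1032950 in dry seeds, 544019 at 12-HAI and 596044 at 24-HAI. With every time point scaled to the same total, 9 of the 45 genes met the limits, and all of the other 36 failed at the fall from dry seeds. The genes left were Glyma02g42220, Glyma07g32360, Glyma12g07050, Glyma13g24180, Glyma02g38921, Glyma07g03560, Glyma08g39210, Glyma05g36090 and Glyma05g36100. Scaling by the median ratio instead left 43 of the 45 and added others, to 73 in all. For Glyma10g35871, the ratio of dry seeds to 12-HAI went from 2.47 to 1.17 after quantile normalization, while its rise at 24-HAI remained.

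The level reached at 24-HAI varied from gene to gene, from 0.339 to 6.19 times that in dry seeds. It was within 1.5-fold of the dry-seed level in 27 of the 45 genes, and the median ratio of 24-HAI to dry seeds was 1.05. This return depends on the scale. For the same 45 genes the median ratio was 1.82 with the same total at each time point, 0.769 with median-ratio scaling and 1.28 after quantile normalization, and the number within 1.5-fold was 17, 18 and 25. In 8 genes the value at 24-HAI was at least 2.4 times that in dry seeds, and in 1 gene it was at least 2.4 times lower. With the same total these counts were 11 and 0, and with median-ratio scaling they were 4 and 4. The highest of the 5 values was that at 24-HAI in 22 genes, that in dry seeds in 20 genes and that at 3-HAI in 3 genes. In the level group these shares were 23.7%, 40.5% and 26.4%, but the rule required high values at both ends and excluded 12-HAI. The split also depends on the scale. As deposited, 23 genes were above dry seeds at 24-HAI, against 41 with the same total, 12 with median-ratio scaling and 33 after quantile normalization.

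Glyma10g35871, at chr10:44076743-44077667, was the most abundant of the set at 24-HAI. It had 335 (dry), 126 (3-HAI), 104 (6-HAI), 135 (12-HAI) and 1931 (24-HAI) FPKM. By level it was place 370 of all genes in dry seeds and place 5 at 24-HAI. Its low point was broad, and 6-HAI rather than 12-HAI was its lowest value. This gene alone made up 43.4% of the summed FPKM of the 45 genes at 24-HAI.

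Glyma10g35521 lies on the same chromosome from 43763682 to 43766888. It had 89.7 (dry), 55.1 (3-HAI), 33.9 (6-HAI), 27.5 (12-HAI) and 555 (24-HAI) FPKM. From 12-HAI to 24-HAI it rose 20.2-fold, the largest rise of the set, which took the gene from place 4255 to place 42. Its ratio of dry seeds to 12-HAI was 3.26 as deposited. With the same total and after quantile normalization it was 1.72 and 2.13, under the limit, while the rise remained. The sum over all 45 genes was 2367 (dry), 633 (12-HAI) and 4449 (24-HAI) FPKM. Without Glyma10g35871 these sums were 2033, 497 and 2518 FPKM, so the excess of 24-HAI over dry seeds in the sum rests mainly on that gene.

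Of the 8 genes at least 2.4 times above their dry-seed level at 24-HAI, 4 had under 20 FPKM in dry seeds. Glyma09g29360, at chr9:36262291-36263741, had 10.8 (dry), 3.65 (3-HAI), 4.40 (6-HAI), 2.97 (12-HAI) and 47.6 (24-HAI) FPKM. Glyma08g26880, at chr8:21203390-21204320, had 12.8, 6.09, 4.59, 3.07 and 42.2 FPKM at the same time points. Both were close to the limit of 10 FPKM in dry seeds and rose 16.1-fold and 13.7-fold in the last interval. Glyma15g03710, at chr15:2596618-2598157, was nearer still, with 10.5 (dry), 11.2 (3-HAI), 6.76 (6-HAI), 3.55 (12-HAI) and 30.4 (24-HAI) FPKM.

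The genes with the largest falls stayed under their dry-seed level at 24-HAI on the deposited scale. With the same total at each time point, Glyma13g24180 and the pair Glyma05g36090 and Glyma05g36100 were above it instead, at 1.46 and 1.21 times, and Glyma13g24180 was also above it after quantile normalization, at 1.28 times. Glyma08g39210, at chr8:38668024-38668887, had 36.1 (dry), 14.2 (3-HAI), 8.28 (6-HAI), 2.41 (12-HAI) and 12.2 (24-HAI) FPKM. It fell 15.0-fold by 12-HAI and rose 5.07-fold after it, and it is the gene that stayed at least 2.4 times under its dry-seed level. Glyma07g03560, at chr7:2488171-2490564, had 49.7, 18.6, 13.6, 4.66 and 26.0 FPKM, a 10.7-fold fall and a 5.59-fold rise. Glyma02g42220, at chr2:47295297-47297768, was the most abundant of the set in dry seeds. Its values were 379 (dry), 157 (3-HAI), 91.0 (6-HAI), 40.6 (12-HAI) and 173 (24-HAI) FPKM. Its fall was 9.33-fold and its rise 4.27-fold.

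Glyma07g32360, at chr7:37271699-37272460, had 73.2 (dry), 40.9 (3-HAI), 27.2 (6-HAI), 7.87 (12-HAI) and 33.7 (24-HAI) FPKM. Glyma13g24180, at chr13:27526789-27527554, had 56.5, 41.2, 22.3, 8.25 and 47.6 FPKM. In both genes the largest step down lay between 6-HAI and 12-HAI. Glyma05g36090 and Glyma05g36100, on chromosome 5, share all values, with 25.7 (dry), 9.72 (3-HAI), 6.63 (6-HAI), 3.46 (12-HAI) and 17.9 (24-HAI) FPKM. The span of the first, from 39994173 to 39994597, lies inside that of the second, from 39994166 to 39997441, on the same strand, so the values cannot be assigned to either.

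Other abundant genes of the set fell less by 12-HAI. Glyma10g02210, at chr10:1533205-1534729, had 111 (dry), 52.5 (3-HAI), 45.4 (6-HAI), 45.2 (12-HAI) and 149.9 (24-HAI) FPKM. Most of its fall was over by 3-HAI, and the values at 6-HAI and 12-HAI were nearly equal. Glyma06g46680, at chr6:49266700-49268622, had 98.0, 62.8, 46.9, 38.3 and 149.99 FPKM. Glyma15g04805, at chr15:3362279-3372518, had 81.0, 79.1, 56.0, 24.0 and 121 FPKM, so that nearly all of its fall came after 3-HAI. This gene has the longest span of the set and overlaps another gene of the table. Glyma10g02210, Glyma06g46680 and Glyma15g04805 missed the limit of the fall on other scales. Their ratios of dry seeds to 12-HAI were 1.30, 1.35 and 1.78 with the same total. After quantile normalization they were 1.45, 1.59 and 2.27.

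The values at 3-HAI and 6-HAI were not used to choose the genes, but the dry-seed values they are compared with were. In 40 of the 45 genes the value at 3-HAI was under that in dry seeds, and in 35 genes (77.8%) the value was lower at each step from dry seeds through 3-HAI and 6-HAI to 12-HAI. The median ratio to dry seeds was 0.614 at 3-HAI and 0.430 at 6-HAI. Over the level group the same medians were 0.938 and 0.872, and 30.2% of its genes were lower at each step. A value at 3-HAI above that in dry seeds was seen in 44.4% of the level group. A fall was reached at 3-HAI by 9 of the 45 genes, against 1% of the level group, and at 6-HAI by 22 of them, against 5.87%. With the same total at each time point, 34 of the same 45 genes were lower at 3-HAI than in dry seeds, 17 were lower at each step, 0 had fallen by 3-HAI and 6 by 6-HAI. With median-ratio scaling these counts were 43, 38, 17 and 33. Since the genes were required to be low at 12-HAI, low values just before it are in part set by that choice. The rule also required a high value in dry seeds, so low ratios to dry seeds are in part set by it as well. The differences from the level group are therefore a description only.

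The 1146 genes of the level group that had fallen by 12-HAI and did not rise afterwards share the first limit with the rebounding genes, and are therefore the closer comparison. They differ from them in level, with a median of 125 FPKM in dry seeds against 36.1 FPKM, and in span on the genome. Their medians relative to dry seeds were 0.664 at 3-HAI, 0.475 at 6-HAI and 0.315 at 12-HAI, against 0.614, 0.430 and 0.287 in the rebounding genes. The quartiles of the 2 sets overlapped at all 3 time points. At 3-HAI they ran from 0.474 to 0.729 in the rebounding genes and from 0.563 to 0.771 in those kept low. A value lower at each step was seen in 88.5% of the genes kept low. A value at 3-HAI above that in dry seeds was seen in 11.1% of the rebounding genes and in 6.81% of the genes kept low. A fall by 3-HAI was seen in 4.71% of the genes kept low and in 20% of the rebounding genes. This difference rests on 9 genes, among them 1 pair with identical values, and was not tested. It holds for the deposited scale. Of the same 45 genes, 0 fell by 3-HAI with the same total, 17 with median-ratio scaling and 7 after quantile normalization. The genes kept low were not computed on these scales.

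**Figure D3:**
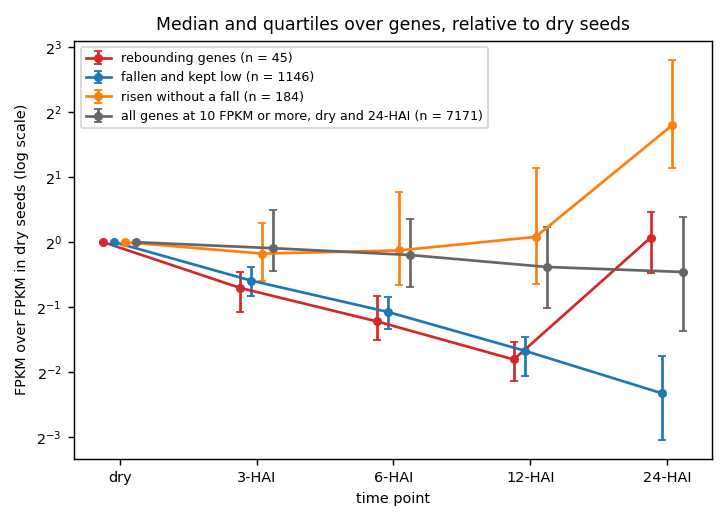
Median FPKM relative to dry seeds (points) and quartiles over genes (bars) at each time point, on a log scale, for the 45 rebounding genes, the 1146 genes that fell and stayed low, the 184 genes that rose without a fall and all 7171 genes of the level group. The rebounding genes lie close to the genes kept low through 12-HAI, at 0.287 and 0.315, and part from them at 24-HAI, at 1.05 and 0.200.

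The step with the largest fall on the log2 scale was dry seeds to 3-HAI in 19 genes, 3-HAI to 6-HAI in 9 genes and 6-HAI to 12-HAI in 17 genes. These counts hold for the deposited scale, and the last step is longer than the others. They were not computed for the level group or on the other scales, so nothing is read from them. Between 6-HAI and 12-HAI 8 of the 45 genes (17.8%) fell, against 2.59% of the level group and 10.8% of its genes that fell and stayed low. The value at 12-HAI was used by the rule, so nothing is read from this count. The lowest of the 5 values was at 12-HAI in 42 genes and at 6-HAI in 3. Besides Glyma10g35871 the latter were Glyma07g09510 and Glyma05g01980. Under the rule only 3-HAI and 6-HAI could lie below 12-HAI, so the count of 42 is largely set by the choice. The lowest value was at 12-HAI in 16.6% of the level group and in 20.3% of its genes that fell and stayed low. Of the same 45 genes it was there in 33 with the same total, 42 with median-ratio scaling and 38 after quantile normalization. Glyma07g09510, at chr7:7957960-7959142, had 16.1 (dry), 6.09 (3-HAI), 4.51 (6-HAI), 5.37 (12-HAI) and 15.8 (24-HAI) FPKM. Glyma05g01980, at chr5:1422055-1428945, had 16.1, 6.55, 3.53, 4.23 and 10.3 FPKM.

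In 5 genes (11.1%) the value at 3-HAI was above that in dry seeds, against 44.4% of the level group. The dry-seed value was used by the rule, so nothing is read from this difference. Glyma07g15510, at chr7:15309054-15310384, stood apart among the 5 genes, with 16.3 (dry), 82.6 (3-HAI), 13.8 (6-HAI), 5.35 (12-HAI) and 19.6 (24-HAI) FPKM. It rose 5.06-fold by 3-HAI, and 3-HAI rather than either end was its highest point. Glyma13g07110, at chr13:7287388-7291220, had 19.1, 28.2, 12.6, 7.79 and 56.5 FPKM. Glyma17g35430, at chr17:39398379-39400154, had 19.3, 23.6, 12.1, 6.68 and 16.2 FPKM. Glyma15g31520, at chr15:34878041-34879315, had 36.9, 39.7, 23.6, 10.6 and 30.6 FPKM. In these and in Glyma15g03710 the excess at 3-HAI was under 1.5-fold.

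The rebounding genes were shorter than the level group. Their span on the genome, introns included, had a median of 1451 bases, against 3803 bases in the level group, 3328.5 bases in its genes that fell and stayed low and 2730.5 bases in its genes that rose without a fall. A span under 1000 bases was found in 16 of the 45 genes (35.6%) and in 5.05% of the level group. Counting 1 gene for each set of identical values, the median of the rebounding genes was 1530.5 bases. The span did not enter the rule.

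Within the level group the share of rebounding genes was 4.42% among the 362 genes under 1000 bases, 1.68% from 1000 to 2000 bases, 0.358% from 2000 to 4000 bases and 0.120% from 4000 bases on. The fall by 12-HAI was seen in 28.7%, 22.9%, 18.0% and 12.4% of the genes of these classes, and the rise after it in 10.8%, 5.97%, 3.26% and 1.53%. Both parts of the pattern were therefore more frequent in short genes. Transcript length enters FPKM as a divisor, and its part in this relation was not tested. Of the rebounding genes, 30 (66.7%) lie on the minus strand, against 50.0% of the level group. The share was 48.3% in its genes that fell and stayed low and 42.4% in its genes that rose without a fall. Counting 1 gene for each set of identical values, it was 64.3% in the rebounding genes. The difference was not tested.

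**Figure D4:**
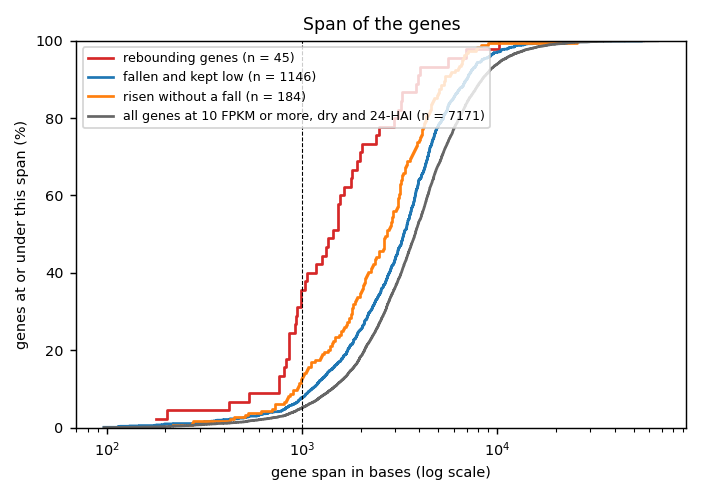
Share of genes (vertical axis, %) at or under a given span in bases (horizontal axis, log scale) for the rebounding genes, the genes that fell and stayed low, the genes that rose without a fall and the whole level group. At the dashed line of 1000 bases the rebounding genes reach 35.6% and the level group 5.05%.

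The 45 genes lie on 17 chromosomes, with 8 of them (17.8%) on chromosome 11, which holds 6.04% of the level group and 4.84% of all genes. Of these 8 genes, 5 belong to the runs described next and 2 pairs share identical values. Another rebounding gene was found among the next 5 genes for 9 of the 45, and the number for other sets of this size was not computed. The 9 genes form 4 runs, and 3 of the runs hold a pair with identical values. Besides the pair on chromosome 5, Glyma11g36660 and Glyma11g36670, neighbours on chromosome 11 from 38048714 to 38048893 and from 38049739 to 38053756, share 36.1 (dry), 22.8 (3-HAI), 12.7 (6-HAI), 12.6 (12-HAI) and 40.3 (24-HAI) FPKM. The former has a span of only 180 bases, the shortest of the set. With 1 gene for each set of identical values, 42 profiles were left and 4 of these had another one nearby.

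The run of 3 genes is on chromosome 11. Glyma11g15050, from 10784067 to 10785054, and Glyma11g15060, from 10788343 to 10789329, share 40.6 (dry), 25.1 (3-HAI), 20.6 (6-HAI), 14.9 (12-HAI) and 97.5 (24-HAI) FPKM. Glyma11g15090, from 10804367 to 10805308, had 78.1, 47.8, 30.1, 20.7 and 91.4 FPKM. All 3 are on the minus strand and span 988, 987 and 942 bases. Of the 3 genes between the second and the last, Glyma11g15070 on the plus strand stood out, with 8.66 (dry), 5.56 (12-HAI) and 46.0 (24-HAI) FPKM, which missed the limits in dry seeds and rose 8.28-fold. On the far side of Glyma11g15090, Glyma11g15105 had 0.0901 (dry), 0.639 (12-HAI) and 7.79 (24-HAI) FPKM.

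A run of much the same layout lies on chromosome 12. Glyma12g07030, from 4792977 to 4793836, had 40.2 (dry), 26.5 (3-HAI), 22.5 (6-HAI), 12.9 (12-HAI) and 43.8 (24-HAI) FPKM. Glyma12g07050, from 4805797 to 4806629, had 69.8, 34.9, 23.5, 14.5 and 52.7 FPKM. Both are on the minus strand and span under 1000 bases. Between them lie Glyma12g07040 and Glyma12g07045 on the plus strand with shared values of 29.3 (dry), 13.8 (12-HAI) and 75.1 (24-HAI) FPKM, a dry-seed level 2.13 times that at 12-HAI and so just outside the limit. The next gene, Glyma12g07061, had 0.0407 (dry), 7.67 (12-HAI) and 56.8 (24-HAI) FPKM. Glyma11g15105 and Glyma12g07061, each beside a rebounding gene, were thus higher at 24-HAI than at 12-HAI with hardly any transcript in dry seeds. Glyma11g15070, Glyma12g07040 and Glyma12g07045, which were also higher at 24-HAI, had 8.66, 29.3 and 29.3 FPKM in dry seeds. Whether the runs are copies of each other was not tested, as no sequence was used.

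**Figure D5:**
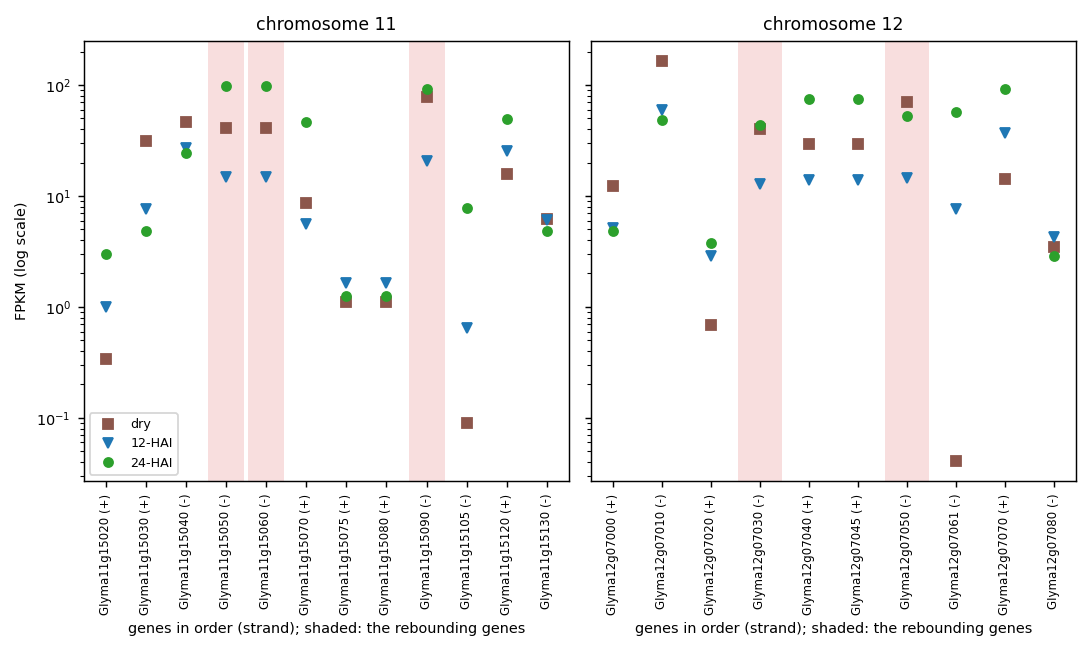
FPKM (log scale) in dry seeds, at 12-HAI and at 24-HAI of the genes in and around the runs on chromosomes 11 and 12, in their order along the chromosome, with the strand in brackets and the rebounding genes shaded. In the shaded genes the triangle of 12-HAI lies under both other symbols, as it also does in Glyma11g15070, Glyma12g07040 and Glyma12g07045.

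The genes directly beside the rebounding genes were also compared. The 45 genes have 90 different genes directly beside them, of which 84 are not rebounding genes themselves and 62 of these are expressed. Among the 84 genes, 9 (10.7%) had fallen by 12-HAI from 10 FPKM or more and 8 (9.52%) rose to 10 FPKM or more at 24-HAI. The same shares were 5.92% and 3.17% over all genes outside the set, and 8.35% and 3.30% over the 13084 genes beside a gene of the level group. The share that had fallen was thus little above that beside genes of the level group, and the share that rose was higher. These shares rest on 9 and 8 genes, some of them in the runs above, and the difference was not tested. The genes that rose include Glyma11g15070, Glyma12g07040, Glyma12g07045 and Glyma12g07061 from the runs, and Glyma12g07040 and Glyma12g07045 share all values. Glyma09g29371, which follows Glyma09g29360, had 1174 (dry), 45.1 (12-HAI) and 21.2 (24-HAI) FPKM, while Glyma09g29360 rose over the last interval. Glyma05g36110, which follows the pair on chromosome 5, had 185 (dry), 15.7 (12-HAI) and 1.78 (24-HAI) FPKM. These neighbours were chosen after their values were seen.

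The genes with the highest levels or most extreme ratios, the run of 3 genes on chromosome 11 and genes sharing their values make up 23 of the 45. The other 22, which include the runs of Glyma11g36660 and Glyma12g07030, had between 10.7 and 69.8 FPKM in dry seeds, and none of them passed 91.2 FPKM at 24-HAI. Their rise from 12-HAI ran from 2.44-fold to 6.15-fold. The following examples were chosen after their values were seen.

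Glyma02g38921, at chr2:44247340-44248146, came back to its dry-seed level on the deposited scale, with 52.1 (dry), 28.1 (3-HAI), 24.8 (6-HAI), 10.2 (12-HAI) and 51.3 (24-HAI) FPKM. Glyma18g50120, at chr18:59337674-59338706, also did, with 21.5, 21.0, 10.9, 4.89 and 22.5 FPKM. The latter was nearly unchanged at 3-HAI, as was Glyma20g38140, at chr20:45811790-45813597, with 16.8, 16.2, 11.3, 5.63 and 13.9 FPKM. With the same total at each time point, Glyma02g38921 and Glyma18g50120 were 1.71 and 1.82 times above dry seeds at 24-HAI. The falls of Glyma18g50120 and Glyma20g38140 were spread over the hours after 3-HAI. Glyma06g45830, at chr6:48562585-48563439, had 22.6 (dry), 12.1 (3-HAI), 14.1 (6-HAI), 5.09 (12-HAI) and 31.3 (24-HAI) FPKM. On the deposited scale, Glyma06g45830 and Glyma09g29360 were the 2 genes of the set with a higher value at 6-HAI than at 3-HAI. With the same total at each time point others were higher as well, such as Glyma02g38921 with 24.8 FPKM at 3-HAI and 26.5 FPKM at 6-HAI. Glyma15g42787, at chr15:50210087-50210290, spans only 204 bases and had 68.8, 47.9, 41.3, 24.3 and 91.2 FPKM.

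The text of the study gives identifiers and functions for 34 genes, and none of them is among the 45. Of the 34 genes, 9 are in the level group, and none of these fell by 12-HAI or rose after it. In the whole level group 16.6% fell and 3.19% rose, and the rebounding genes are 0.135% of the expressed genes. With so few genes named in the study, nothing is read from the absence of the pattern among them. Outside the level group, Glyma01g43460, a protein phosphatase gene induced by abscisic acid (ABA), and Glyma09g41960, a CYP707A2 gene of ABA breakdown, fell from dry seeds to 12-HAI and stood at 2.43 and 2.59 FPKM at 24-HAI. The genes Glyma12g22660 (a homolog of THESEUS1), Glyma16g20490 (CYP707A1) and Glyma17g05290 (arogenate dehydratase) rose from 12-HAI to 24-HAI but had under 2 FPKM in dry seeds.

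The limits were met closely by some genes. With all other limits passed, the values in dry seeds nearest to 10 FPKM were 10.5 FPKM in Glyma15g03710 and 10.7 FPKM in Glyma11g04530 inside, and 9.33 FPKM in Glyma04g33941 and 7.82 FPKM in Glyma03g05510 outside. At 24-HAI they were 10.3 FPKM in Glyma05g01980 and 12.2 FPKM in Glyma08g39210 inside, and 9.41 FPKM in Glyma03g19260 and 9.15 FPKM in Glyma09g39730 outside. The genes nearest outside missed by little in level, and the ratios were closer still. For the ratio of dry seeds to 12-HAI, Glyma11g15790 with 2.43 and Glyma13g07110 with 2.46 were just inside, and Glyma11g03320 with 2.36 and Glyma01g28810 with 2.35 just outside. For the ratio of 24-HAI to 12-HAI, Glyma17g35430 with 2.42 and Glyma05g01980 with 2.44 were just inside, and Glyma11g15700 with 2.37 and Glyma03g38630 with 2.35 just outside.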

How the data were processed

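Per the submitters' processing notes and the study's methods, the authors used Trimmomatic 0.30 for trimming, TopHat2 2.0.9 with Bowtie2 2.1.0 for mapping to soybean genome version 1.1, and Cufflinks for FPKM. The deposited FPKM table gives 1 value per gene and time point made from both replicates, and how these were combined is not stated. It has 54801 rows for 54154 genes. For the 647 genes with 2 rows the row with the higher maximum was kept, and none of the 45 genes has 2 rows. All value columns were assigned to time points by name.

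Ratios were taken without a pseudocount in Python 3.11.15 with numpy 2.4.6 and pandas 2.3.3, and figures were drawn with matplotlib 3.10.9. The code for the rule was checked on simulated profiles with known answers, planted well away from the limits. This gives no error rate for the rule in these data. The genes and lists were chosen with earlier results of these data known. Genes named are the highest of the set in dry seeds (8) and at 24-HAI (8), those with the largest ratios to 12-HAI (6 each), the largest and smallest ratios of 3-HAI to dry seeds (4 each), genes in runs of 3 or more, and those nearest to each limit. Other named genes were chosen after their values were seen. None of the identifiers matched the RefSeq gene table (Glycine_max_v4.0), so no sequence is given. The coordinates are those of the table, and whether they count from 0 or 1 is not stated. Spans are end minus start plus 1.

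The alternatives tried were other fold limits and minimum levels, a pseudocount, other scalings of the time points, other ways to count genes with 2 rows, with identical values or with overlaps, and 6-HAI as the low point. The ratios of the same 45 genes under each scaling and the shares for neighbouring genes and for chromosome 11 were added after the data were seen.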

Additional observations from a re-analysis of the deposited data

How the results depend on the processing

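No paired analysis was possible because the table holds 1 value per time point, and for the same reason no replicate could be left out. Of 112 values (7 results under 16 alternatives), 64 kept close to the reported value and 48 moved, and none of these results has a test. For counts, close means within 1.5-fold, whichever genes they hold. The 64 include all values under the other ways to count genes with 2 rows. Those equal the reported values, and they show little because none of the 45 genes has 2 rows. The reported values are 45 genes, of which 9 fell by 3-HAI, 22 by 6-HAI and 8 between 6-HAI and 12-HAI, 42 were lowest at 12-HAI and 9 had another one nearby, with a median ratio of 24-HAI to dry seeds of 1.05. In the same order, and with falls counted at the same limit, a fold limit of 2 gave 101, 26, 58, 22, 82 and 20 genes, a limit of 3 gave 22, 0, 5, 2, 22 and 4, and a limit of 4 gave 12, 0, 2, 0, 12 and 2 with a median ratio of 0.769. A minimum of 1 FPKM gave 153, 24, 88, 25, 132 and 17 genes. A minimum of 5 FPKM gave 36 genes that fell by 6-HAI, 15 with another nearby and a median ratio of 0.984. A minimum of 20 FPKM gave 27 genes, 3 that fell by 3-HAI, 14 by 6-HAI and 26 lowest at 12-HAI. Median-ratio scaling gave 73 genes, 26 that fell by 3-HAI, 44 by 6-HAI, 17 with another nearby and a median ratio of 0.966. The same total at each time point gave 9, 0, 5, 2, 9 and 2 genes. A pseudocount of 1 FPKM left 5 genes that fell between 6-HAI and 12-HAI, 1 gene per set of identical values left 4 with another nearby, and 6-HAI as the low point gave 37 genes, of which only 13 are among the 45, with 37 that fell by 6-HAI as that rule requires, 0 between 6-HAI and 12-HAI and 10 lowest at 12-HAI. Larger fold limits and higher minimum levels select fewer genes by construction. The cause of the changes under the scalings was not tested. Quantile normalization gave 57 genes, 35 of them among the 45. The number of reads behind each FPKM is unknown, so the precision of the lowest values at 12-HAI could not be given.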
